A study of Mus musculus with 6 samples.

Results

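The synaptic vesicle fusion machinery was followed in microarray profiles of adult and developing mouse cochlear sensory epithelia (CSE). Its members were taken by gene symbol from the array annotation: synaptotagmins, syntaxins and syntaxin-binding proteins, the SNAP-25 family with Snap91, VAMPs, synapsins, Sv2 glycoproteins, Rab3 GTPases, complexins and Unc13 proteins, each probe set having to name 1 gene only. The rule used no measured value. It gave 156 of the 45101 probe sets of the array, for 66 genes. A probe set was counted as measured when its signal exceeded the background level of the array on at least 3 of the 6 arrays. By this filter 131 member probe sets and 58 member genes were measured, of 29036 probe sets and 13743 genes in all. The other 8 genes, Cplx3, Cplx4, Rab3b, Stx19, Syt5, Syt6, Syt10 and Syt16, had only probe sets that did not pass it.

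CSE were dissected from adult Swiss Webster mice of 8 weeks and from Swiss Webster mice at postnatal day 3 (P3), an age before the onset of hearing. Each stage was represented by 3 Affymetrix arrays, and each array held RNA pooled from 20 mice in a separate dissection, so that the spread between arrays is one between pools and not between animals. No genotype, treatment or sorting distinguished the stages. By the study's methods the otic capsule, modiolus, spiral ligament, stria vascularis and most of the spiral ganglion were removed. The P3 pieces held the greater and lesser epithelial ridges, and the adult pieces the inner sulcus and interdental cells, beside hair cells and supporting cells.

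Vesicles fuse when a VAMP on the vesicle zippers with a syntaxin and a SNAP-25 relative on the target membrane. Munc18 proteins hold and template the syntaxin, Unc13 proteins prime the vesicle, complexins clamp the assembled SNAREs, and a synaptotagmin triggers fusion when it binds calcium. In the cochlea the vesicles of inner hair cells are released at ribbon synapses that use otoferlin as a calcium sensor, whereas the efferent nerve endings that reach hair cells are conventional synapses with synapsins and synaptotagmins.

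Members were read beside markers of the cells in the dissected tissue. Of 17 hair cell markers 11 were measured, Myo7a, Pou4f3, Gfi1 and Otof among them. The 11 summed to 3236 to 8983 on adult arrays, against 1923 to 2133 on P3 arrays. Calb2 and Pvalb made up most of these sums. Calb2 had 4366, 1542 and 2926 on adult arrays and 203, 522 and 775 on P3 arrays. Pvalb had 4035, 926 and 1745 on adult arrays and 1057, 707 and 659 on P3 arrays. Of the 11 markers, 7 had negative log2 fold changes, Myo7a, Pou4f3, Gfi1 and Otof among them, none of these being called. The probe sets of Slc26a5 and Tmc1 did not pass the filter, and Ocm, Slc17a8, Cib2 and Loxhd1 were not analysed here. All 9 supporting cell markers were measured, with sums from 14682 to 17969 on adult arrays against 8418 to 10634 on P3 arrays. Gjb2, Gjb6 and Sparcl1 made up most of these sums, and these 3 were higher on every adult array than on any P3 array. Sox2 and Otog were lower on every adult array, and the other markers overlapped. That is 33.3% and 22.2% of the list, beside 15.9% and 20.3% of all genes. Gjb6 was called higher in adult and Sox2 and Otog higher at P3, the call of Otog being lost without any one array except P3 replicate 1. The 4 astrocyte markers summed to 393 to 1422 on adult arrays against 311 to 574 on P3 arrays, and Aldh1l1 was called higher in adult, a call also lost without any one array except P3 replicate 1. All 18 neuron markers were measured, and the sum of their signals was 25626, 7654 and 12791 on adult replicates 1, 2 and 3, against 6396, 5627 and 6995 on P3 replicates 1, 2 and 3. Nefl, Nefm and Nefh made up most of the adult sums. Taken 1 by 1, 6 of the 18 (33.3%) were higher on every adult array than on any P3 array, beside 15.9% of all genes. The reverse held for 1 (5.56%, beside 20.3%), and the rest overlapped. All 11 granulocyte markers were called higher in adult, with summed signals from 4224 to 19125 on adult arrays against 122 to 365 on P3 arrays. Of 9 pituitary markers 3 were measured, and prolactin and growth hormone were called higher in adult, with summed signals of the 3 from 285 to 3432 on adult arrays against 33.0 to 69.2 on P3 arrays. Of the other 6, Pou1f1 was not analysed here and the rest, Cga among them, did not pass the filter. P3 replicate 1 stood apart in RNA quality: its signal ratio of the 3′ to the 5′ probe set of Gapdh was 82.0, where the other 5 arrays had 0.707 to 2.07, and only 47.4% of its probe sets were above background, against 58.6% to 68.1%. Because the tissue is a mixture, fewer cells of a type and less RNA per cell cannot be told apart in any value below.

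Most of the members called were higher in adult CSE. With 3 arrays per stage, a gene not called is not shown to be unchanged. A gene was represented by its brightest measured probe set and called when the limma adjusted p was under 0.05 and the geometric means of the stages differed at least 2-fold. Of 58 member genes, 6 were called higher in adult, namely Snap25, Vamp1, Vamp5, Vamp8, Syt2 and Syt4, and 1, Syt17, was called higher at P3. That is 10.3% and 1.72% of the members, beside 4.53% and 5.49% of all genes measured. Counted by probe set, 9 of 131 were called higher in adult and 1 higher at P3, that is 6.87% and 0.763%, where the whole array gave 3.39% and 3.87%. The 3 adult arrays all exceeded the 3 P3 arrays for 11 members (19.0%, beside 15.9% of all genes), and the reverse held for 10 (17.2%, beside 20.3%), so that on this count the members were near the background. The median log2 fold change of adult over P3 was 0.34 over the members and -0.04 over all genes measured. Without adult replicate 1 the median of the members was 0.16. Without adult replicate 3 the genes called higher in adult numbered 3, Snap25, Syt4 and Vamp5, and Syt17 was not called without any one of adult replicate 3, P3 replicate 2 or P3 replicate 3.

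**Figure D1:**
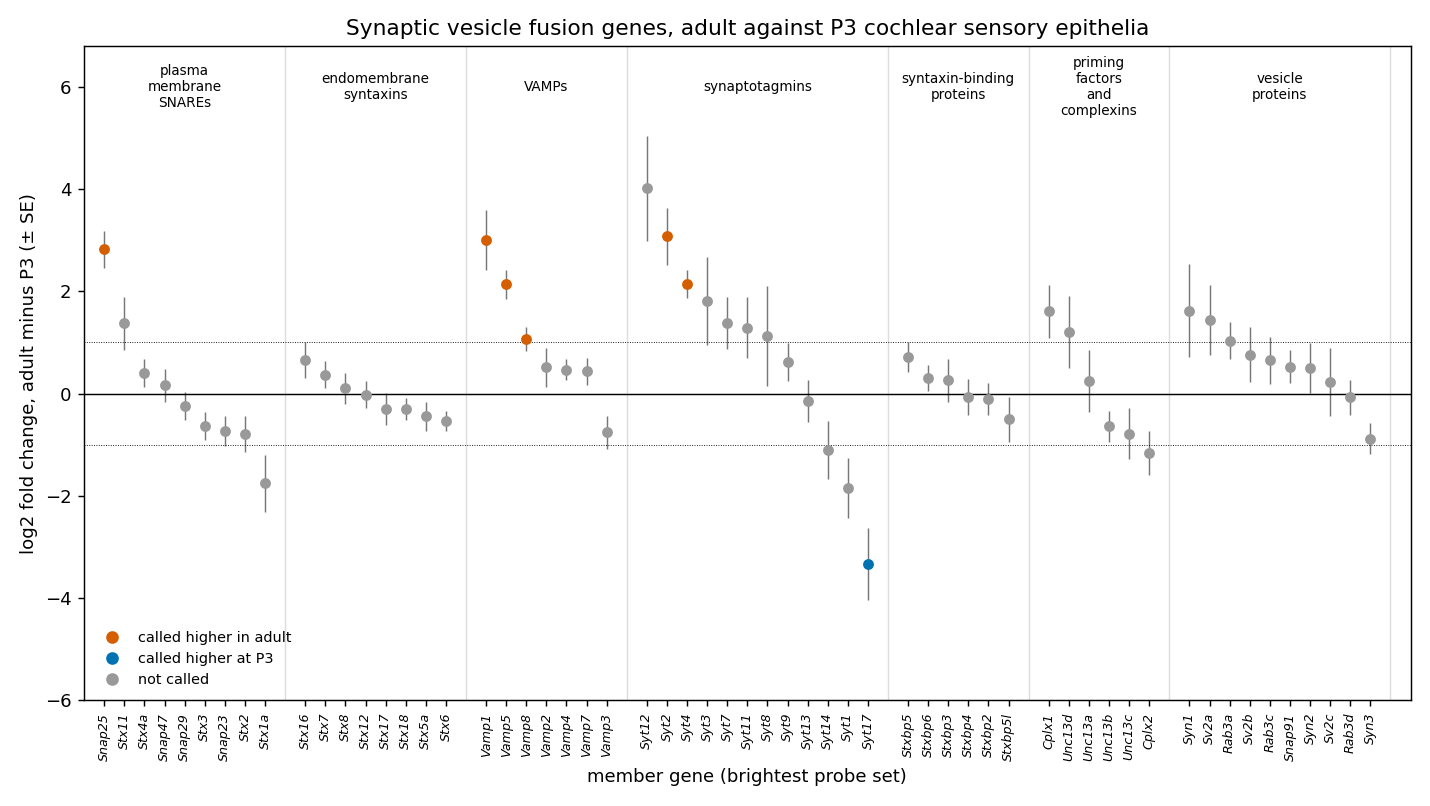
Log2 fold change of adult over P3 for each of the 58 measured member genes, grouped by class, with the standard error of limma; orange points were called higher in adult, the blue point higher at P3, grey points were not called, and dotted lines mark a 2-fold difference. The called genes lie among the SNAREs and synaptotagmins, and the points of the endomembrane syntaxins lie between -0.53 and 0.67.

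Among the SNAREs of the plasma membrane, Snap25 was the only one called, with a higher signal in adult CSE. Snap25 encodes the neuronal SNARE that pairs with a syntaxin and a VAMP. Its signal was 6511, 2609 and 3582 on adult replicates 1, 2 and 3, against 440.1, 571 and 682 on P3 replicates 1, 2 and 3. The stages were far apart, the lowest adult array lying well above the highest P3 array. The log2 fold change was 2.82 ± 0.36 (SE, 3 arrays per stage), a 7.08-fold difference of geometric means with a limma adjusted p of 0.00395. A second Snap25 probe set was called as well, with a log2 fold change of 2.32.

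Syntaxin 1A, the best known partner of SNAP-25 in nerve terminals, ran the other way: Stx1a had 52.9, 16.8 and 54.5 on adult arrays and 223, 89.0 and 94.5 on P3 arrays. All 3 P3 arrays exceeded the adult arrays, and the log2 fold change of -1.76 ± 0.55 missed the threshold (limma adjusted p = 0.094). Stx3, an apical epithelial syntaxin also used at retinal ribbon synapses, had 102, 148 and 138 on adult arrays and 236, 218 and 150.4 on P3 arrays, with a limma adjusted p of 0.205. Its 4 measured probe sets did not all point the same way. Snap23, the widely expressed relative of Snap25, and Stx2, a plasma membrane syntaxin of epithelia, were also lower on every adult array than on any P3 array without passing the test (log2 fold changes of -0.73 and -0.79). Stx11, a syntaxin of immune cells and platelets, had 26.4, 60.8 and 26.4 on adult arrays and 13.9, 11.9 and 14.8 on P3 arrays (limma adjusted p = 0.154). Its highest array, adult replicate 2, was also the highest for the granulocyte markers, whose part in the value was not tested. Stx4a, Snap29 and Snap47 overlapped between the stages, with log2 fold changes from -0.25 to 0.40.

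The VAMPs held 3 of the 6 members called higher in adult, of 7 measured. Vamp1 encodes synaptobrevin 1, a vesicle SNARE of brainstem, spinal and sensory neurons. It gave 1624, 255 and 810.4 on adult arrays, against 120.2, 66.5 and 81.0 on P3 arrays. Although adult replicate 1 was several times adult replicate 2, no adult array came down to the P3 range. The log2 fold change was 3.01 ± 0.59 (limma adjusted p = 0.0204), and a second, dim probe set of Vamp1 was called too, with 58.0, 47.4 and 47.9 on adult arrays and 2.13, 2.23 and 9.14 on P3 arrays, but it was above background on 1 P3 array only. The call of the brightest probe set was lost without adult replicate 3 (limma adjusted p = 0.101), P3 replicate 2 (0.0564) or P3 replicate 3 (0.0574).

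Vamp5 and Vamp8 had higher signals in adult CSE, with an array pattern unlike that of Vamp1. Vamp5 encodes a VAMP first found in muscle and myotubes. It gave 216, 401 and 362 on adult arrays and 72.4, 65.8 and 77.5 on P3 arrays. Its log2 fold change was 2.14 ± 0.29 (limma adjusted p = 0.00479), and its second probe set was not called although it had the same sign (1.51). Vamp8, endobrevin, serves late endosomes and the secretory granules of exocrine and blood cells. It gave 752, 1164 and 1052 on adult arrays and 472, 466 and 451 on P3 arrays. The P3 arrays were almost equal and every adult array was higher, by a log2 fold change of 1.07 ± 0.23 (limma adjusted p = 0.0292), close to the 2-fold limit. The call was lost without adult replicate 2 (log2 fold change 0.94), adult replicate 3, P3 replicate 2 or P3 replicate 3, with limma adjusted p from 0.073 to 0.14. For both genes adult replicate 1 was the lowest adult array and adult replicate 2 the highest. The summed granulocyte markers were also highest on adult replicate 2 but lowest on adult replicate 3, and their part in these values was not tested.

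The remaining VAMPs were not called. Vamp2, synaptobrevin 2 of most central synapses, had 465, 159 and 224 on adult arrays and 168, 169 and 201 on P3 arrays, so that adult replicate 1 alone stood out. Vamp3, the cellubrevin of recycling endosomes, was lower on every adult array (426, 417 and 318) than on any P3 array (1055, 551 and 473), with a log2 fold change of -0.76. One other of its 5 probe sets had a limma adjusted p of 0.0445 at a 1.82-fold higher geometric mean at P3, short of the 2-fold limit. Vamp4 of the trans-Golgi network and Vamp7 of late endosomes had log2 fold changes of 0.46 and 0.43.

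Vamp5 and Vamp8 are neighbours on chromosome 6, with 4752 bases and no other coding gene between them in RefSeq, and both are read from the minus strand. The bases before the transcription start of the 3 called VAMP genes are shown because these genes moved in the same direction with different array patterns. Each is 150 bases long, from RefSeq on GRCm38.p6, 5′ to 3′ in the direction of the gene, with GC boxes (GGGCGG, or CCGCCC on the other strand) and CCAAT boxes (CCAAT, or ATTGG on the other strand) in capitals.
Vamp1, chr6:125215431-125215580, plus strand: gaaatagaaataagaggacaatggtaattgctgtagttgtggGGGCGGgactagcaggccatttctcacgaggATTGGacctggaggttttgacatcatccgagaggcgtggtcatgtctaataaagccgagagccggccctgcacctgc
Vamp5, chr6:72380469-72380618, minus strand: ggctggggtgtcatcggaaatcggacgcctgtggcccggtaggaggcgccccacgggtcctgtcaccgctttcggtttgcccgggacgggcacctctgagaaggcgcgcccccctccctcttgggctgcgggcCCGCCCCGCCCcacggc
Vamp8, chr6:72390668-72390817, minus strand: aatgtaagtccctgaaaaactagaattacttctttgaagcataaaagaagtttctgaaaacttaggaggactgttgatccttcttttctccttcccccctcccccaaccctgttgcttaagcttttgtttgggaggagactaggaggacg
The stretch of Vamp1 holds 1 GC box and 1 CCAAT box, and that of Vamp5 holds 2 GC boxes that share 1 base. Neither motif is found in the stretch of Vamp8. Over windows of 250 bases before the start, a GC box on either strand occurs in 32.7% of 32851 mouse promoters and a CCAAT box in 33.8%, so that either motif is common.

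The synaptotagmins moved in both directions. Syt2, the fast calcium sensor of many hindbrain and auditory synapses, had 552, 102 and 231 on adult arrays, against 37.8, 23.8 and 24.2 on P3 arrays. It was above background on all 3 P3 arrays, narrowly so on P3 replicate 1, whose background level was 34.5, and its order on the adult arrays was that of Vamp1. The log2 fold change was 3.07 ± 0.56 (limma adjusted p = 0.0156). A second, dim Syt2 probe set had a log2 fold change of 0.17 and overlapped between the stages, and the mean over both was not called (1.62, limma adjusted p = 0.145). Without adult replicate 3 the adjusted p of the brightest probe set was 0.0781.

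Syt4, the other synaptotagmin called higher in adult, lies on dense core vesicles and is found in hair cells, and it binds calcium poorly. Its signal was 426, 359 and 423 on adult arrays, against 87.7, 69.2 and 124 on P3 arrays. The adult arrays were close together, in the same order as those of Vamp1 and Syt2 but with a much smaller spread. The log2 fold change was 2.14 ± 0.27 (limma adjusted p = 0.00366), and the second Syt4 probe set was called too, with a log2 fold change of 1.89. That probe set had 324, 165 and 214 on adult arrays, a wider spread in the same order, and 73.0, 37.7 and 82.5 on P3 arrays.

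Syt17, also named B/K protein, is a synaptotagmin relative without a transmembrane anchor and was the only member called higher at P3. It gave 13.5, 2.68 and 6.75 on adult arrays, where it was above background on none, and 103, 42.6 and 56.9 on P3 arrays. Set against the adult background level, it was at least 5.79-fold higher at P3. The limma adjusted p of 0.0256 belongs to the signals as deposited, which were below background on every adult array. The probe set passed the filter through the 3 P3 arrays alone. A second, dim probe set of Syt17 was not called (log2 fold change -1.02), and the mean over both was not either (limma adjusted p = 0.129).

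Syt1, the fast calcium sensor of forebrain synapses, had 274, 92.4 and 42.8 on adult arrays and 269, 484 and 389 on P3 arrays. Adult replicate 1 lay within the P3 range and the other adult arrays below it. The log2 fold change of -1.85 ± 0.59 was not called (limma adjusted p = 0.0997), but it was without adult replicate 1 (-2.56, limma adjusted p = 0.0158). All 3 Syt1 probe sets had negative values. Syt7, a slow sensor of high calcium affinity, had 1142, 260.0 and 583 on adult arrays and 315, 150 and 211 on P3 arrays (log2 fold change 1.37, limma adjusted p = 0.145), so that 1 adult array lay within the P3 range. Without adult replicate 2 it was called (1.92, limma adjusted p = 0.0407). Syt11, which does not bind calcium, had 5 probe sets, all with positive values from 1.17 to 1.79 and none called. Syt12, also without calcium binding, had 60.8, 21.4 and 40.8 on adult arrays and 1.04, 1.15 and 10.5 on P3 arrays. It was above background on 1 P3 array only, and the background level of P3 replicate 1 (34.5) exceeded the signal of adult replicate 2, so that the size of its difference is not known. Its limma adjusted p was 0.0519, just short of the threshold. Syt3, Syt8, Syt9, Syt13 and Syt14 overlapped between the stages, with log2 fold changes from -1.10 to 1.81.

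RefSeq lists 2 starts for Syt2 on chromosome 1, and the 150 bases before each are shown because the Syt2 probe sets differed.
Syt2, first start, chr1:134646462-134646611, plus strand: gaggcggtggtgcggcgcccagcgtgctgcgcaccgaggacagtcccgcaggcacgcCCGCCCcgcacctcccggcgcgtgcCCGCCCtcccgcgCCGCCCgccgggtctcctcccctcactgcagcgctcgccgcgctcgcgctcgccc
Syt2, second start, chr1:134709150-134709299, plus strand: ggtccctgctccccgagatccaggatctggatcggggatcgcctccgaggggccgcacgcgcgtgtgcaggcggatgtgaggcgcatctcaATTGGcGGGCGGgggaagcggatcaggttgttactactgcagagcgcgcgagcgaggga
In capitals are GC boxes and, in the second stretch, a CCAAT box read on the other strand. The first holds 3 GC boxes and the second 1 GC box and 1 CCAAT box. Which start the probe sets report was not tested.

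**Figure D2:**
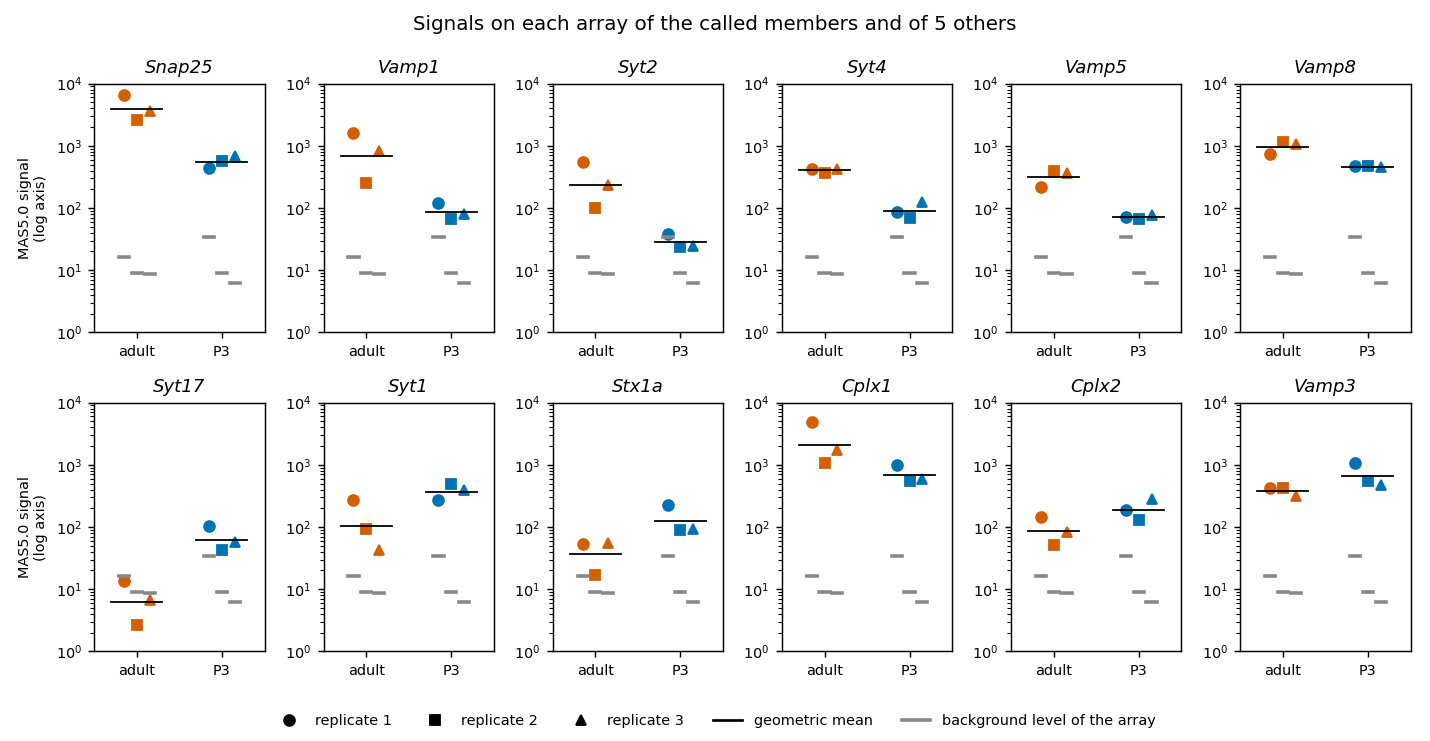
MAS5.0 signal (log axis) of the 7 called members and of Syt1, Stx1a, Cplx1, Cplx2 and Vamp3 on each array, adult in orange and P3 in blue, with symbols for replicates, a black line for the geometric mean and a grey dash for the background level of each array. The adult arrays of Snap25, Vamp1, Syt2 and Cplx1 run in the order of replicates 1, 3 and 2, those of Syt4 lie close together, those of Vamp5 and Vamp8 are lowest on replicate 1, and Syt17 lies below background on the adult arrays.

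None of the 6 syntaxin-binding proteins measured was called. Stxbp5, tomosyn 1, an inhibitor of SNARE assembly, was the only one with every adult array (76.7, 103 and 128) above every P3 array (66.7, 56.4 and 60.1), with a limma adjusted p of 0.185. Its 3 probe sets all had positive values. The related Stxbp5l, the Munc18 proteins Stxbp2 of epithelia and granulocytes and Stxbp3 of syntaxin 4, and Stxbp4 and Stxbp6 had log2 fold changes from -0.51 to 0.31, and in each of these 5 genes the probe sets disagreed in sign.

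Complexins and Unc13 proteins gave no call either, and the values of Cplx1 and Cplx2 had opposite signs. Cplx1 had 4806, 1058 and 1755 on adult arrays and 985, 548 and 583 on P3 arrays. Each adult array exceeded each P3 array, yet adult replicate 2 did so narrowly, and the log2 fold change of 1.61 ± 0.52 was not called (limma adjusted p = 0.101). Cplx2 had 144, 51.5 and 82.5 on adult arrays and 190.2, 129 and 280.2 on P3 arrays, a log2 fold change of -1.16 ± 0.43 (limma adjusted p = 0.142). Each complexin had 3 probe sets, all of the same sign within the gene. The ribbon synapse complexins Cplx3 and Cplx4 were at background on at least 5 arrays.

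Munc13-1, the main priming factor of central synapses (Unc13a), had 36.4, 12.05 and 20.8 on adult arrays and 28.5, 14.2 and 13.4 on P3 arrays, with no separation between the stages. Munc13-2 (Unc13b) was lower on every adult array (105, 182 and 222) than on any P3 array (243, 276 and 241), with a log2 fold change of -0.64 ± 0.30 (limma adjusted p = 0.238). Unc13c and Unc13d, the last being Munc13-4 of cytotoxic lymphocytes and granulocytes, overlapped between the stages, with a log2 fold change of -0.79 for Unc13c and a 2.30-fold higher geometric mean in adult for Unc13d.

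The vesicle proteins were called in neither direction, although all 10 measured had their highest adult signal on adult replicate 1. Rab3a, the small GTPase of synaptic vesicles, had 824, 371 and 599.7 on adult arrays and 407, 260.2 and 201 on P3 arrays (log2 fold change 1.03 ± 0.36, limma adjusted p = 0.124). Sv2a, a vesicle glycoprotein of most synapses, had 733, 99.3 and 322 on adult arrays and 183, 60.1 and 106 on P3 arrays, and its relative Sv2b had 574, 111 and 189.9 on adult arrays and 175, 128 and 111 on P3 arrays. Adult replicate 2 lay within the P3 range for Sv2a and level with the lowest P3 array for Sv2b. Snap91, the clathrin assembly protein AP180, had 706, 334 and 480.1 on adult arrays and 245, 407 and 381 on P3 arrays. Synapsins tether vesicles in nerve terminals, and Syn1 had 338, 27.6 and 102 on adult arrays and 85.8, 19.9 and 19.2 on P3 arrays. Syn2 had 169, 47.5 and 69.6 on adult arrays and 82.5, 48.4 and 49.6 on P3 arrays. Without adult replicate 1 its log2 fold change was -0.02 in place of 0.50. Syn3 differed from the other synapsins, with 55.1, 37.1 and 40.6 on adult arrays, all below the P3 arrays at 76.6, 89.9 and 75.1 (log2 fold change -0.88 ± 0.31, limma adjusted p = 0.128). Rab3d, a GTPase of exocrine secretory granules, had 99.7, 88.1 and 80.5 on adult arrays and 149.5, 70.1 and 78.0 on P3 arrays, and Rab3c and Sv2c overlapped between the stages as well.

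Promoters were found for 53 of the 66 member genes, with 69 starts. A GC box occurred within 250 bases before the start in 59.4% of them, where all promoters gave 32.7%, and the E-box CACGTG in 13.0% against 6.02%. CCAAT (31.9% against 33.8%) and TATAAA (7.25% against 12.4%) were no more frequent. The cAMP response element TGACGTCA was found in 2 member promoters, those of Syn1 and Stxbp3 (2.90%, beside 1.55% of all promoters), and TTCAGCACC, the left part of the element bound by the neuronal repressor REST, in that of Syn1 alone (1.45%, beside 0.301%). The right part of that element was also searched and was found in 0 of the 69 member promoters, beside 0.0974% of all promoters. All these motifs were sought on both strands. The bases of Syn1 are shown because they hold TTCAGCACC and TGACGTCA, in capitals, in that order.
Syn1, chrX:20921019-20921168, minus strand: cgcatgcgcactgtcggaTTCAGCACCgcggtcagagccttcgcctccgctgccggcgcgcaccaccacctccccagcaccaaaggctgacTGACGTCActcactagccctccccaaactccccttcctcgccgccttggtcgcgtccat
A match of letters is not a site of binding, and neither of these 2 motifs was found in the windows of the called members that had a promoter, Vamp1, Vamp5, Vamp8 and Syt2.

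None of the 8 syntaxins of inner membranes was called, and their log2 fold changes lay between -0.53 and 0.67. Stx6 of the trans-Golgi network was lower on every adult array (656, 703 and 711) than on any P3 array (985, 1061 and 949), with a log2 fold change of -0.53 ± 0.20 (limma adjusted p = 0.148). Stx18 of the endoplasmic reticulum was also wholly lower in adult, by less (-0.30). Stx5a of the Golgi, Stx7 and Stx8 of endosomes, Stx12 of recycling endosomes, Stx16 of the trans-Golgi network and Stx17 of autophagosomes overlapped between the stages, with log2 fold changes from -0.44 to 0.67. The median of the class was -0.16, beside 1.21 for the synaptotagmins, 0.59 for the vesicle proteins, 0.51 for the VAMPs, 0.10 for the syntaxin-binding proteins, -0.20 for the complexins and Unc13 proteins and -0.25 for the plasma membrane SNAREs.

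The adult arrays fell in 1 order for many of the neuronal members. Of 58 members, 27 were highest on adult replicate 1, next on replicate 3 and lowest on replicate 2 (46.6%, beside 27.4% of all genes measured). Among them were 9 of 12 synaptotagmins and 8 of 10 vesicle proteins, but 1 of 9 plasma membrane SNAREs and 1 of 8 endomembrane syntaxins. The neuron markers had this order in 15 of 18 cases, and the measured oligodendrocyte and Schwann cell markers in 5 of 5 and 4 of 4. The log2 ratio of adult replicate 1 to adult replicate 2 had a median of 1.54 over the synaptotagmins, 1.35 over the vesicle proteins and 1.96 over the neuron markers, against 0.06 over all genes and -0.29 over the endomembrane syntaxins. The part of nerve tissue left at dissection in these values was not tested.

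**Figure D3:**
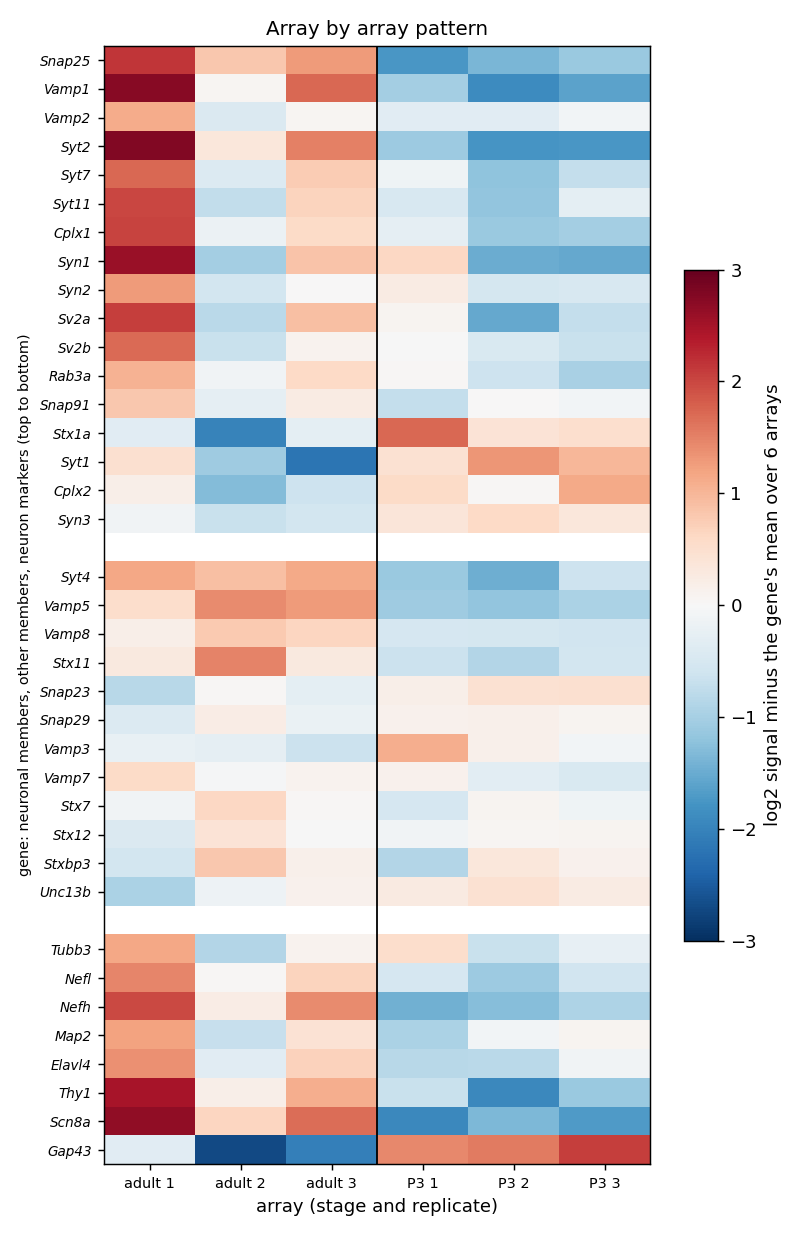
Log2 signal of each gene minus its mean over the 6 arrays, adult arrays left of P3 arrays, for 17 members known from neurons (top), 12 other members (middle) and 8 of the 18 neuron markers (bottom). The genes shown were picked by hand. Of the neuron markers not shown, Mapt, Stmn2 and Uchl1 had negative log2 fold changes and the others positive ones. Most of the upper and lower genes are highest on adult replicate 1 and lower on adult replicate 2, while Syt4, Vamp5 and Vamp8 are high on all 3 adult arrays, and Syt1, Stx1a, Cplx2, Syn3 and Gap43 have higher means at P3.

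The mean log2 signal of the 18 neuron markers was subtracted from each member on the same array, a step chosen after the data had been seen. That mean was itself 0.68 higher in adult, with overlap between the stages. The log2 fold changes of the 18 markers ran from -3.38 for Gap43 to 3.33 for Scn8a. Their mean is therefore no measure of nerve content, and the part of nerve tissue in the values was not tested. On this scale the adult arrays all exceeded the P3 arrays for 6 of 58 members, Snap25, Vamp1, Syt2, Syt4, Syt12 and Cplx1, where 2.81% of all genes did so, and the P3 arrays all exceeded the adult arrays for 13, where 27.3% of all genes did so. The separation of Syt12 rested on signals below background on 2 of the P3 arrays. Of the 6 members called higher in adult, 4 were separated between the stages on this scale, and Vamp5 and Vamp8 overlapped. Snap25 exceeded the marker mean by 3.32, 3.75 and 3.71 log2 units on adult arrays, against 1.21, 1.60 and 1.55 on P3 arrays. On this scale the adult arrays had an SD of 0.24. Vamp2 lay 0.49, 0.28 and 0.29 log2 units below the marker mean on adult arrays and 0.18, 0.16 and 0.21 below it on P3 arrays, so that its ratio to the markers hardly moved. Syt1 lay 1.25, 1.07 and 2.67 below the mean on adult arrays and 0.50, 1.36 and 0.74 above it on P3 arrays.

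Pairs of members with like roles were then compared by the ratio of their signals on 1 array, from which array-wide differences cancel. The size of a ratio depends on the probe sets, and only its difference between stages was read. Of 12 pairs, 7 were separated between the stages and 5 overlapped, where 36.3% of all pairs of measured genes were separated in either direction. With 3 arrays against 3 the exact permutation test gives a two-sided p of 0.1 at best, and 0.171 after adjustment over the 12 pairs, so that no pair could pass 0.05. The log2 ratio of Snap25 to Snap23 was 3.55 higher in adult, at 6.47, 4.27 and 5.06 on adult arrays, against 1.58, 1.66 and 1.90 on P3 arrays. The ratio of Vamp1 to Vamp3 was 3.77 higher and that of Cplx1 to Cplx2 2.77 higher, with all arrays of the stages apart. For Snap25/Snap23 and Vamp1/Vamp3 the separation follows from the genes alone. In both pairs the first gene was wholly higher in adult and the second wholly higher at P3. The complexin ratio was even over the adult arrays (5.06, 4.36 and 4.41), where both genes alone varied.

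Among the 12 pairs the widest shift was between synaptotagmins. The log2 ratio of Syt1 to Syt2 was -1.01, -0.14 and -2.43 on adult arrays, against 2.83, 4.35 and 4.01 on P3 arrays, a difference of -4.92. Taken over all probe sets of each gene the difference was -3.18. The log2 ratio of Syt1 to Syt11 differed by -3.14 between adult and P3, and that of Stx1a to Stx4a by -2.16, again with no overlap. Rab3a to Rab3d was 1.10 higher in adult. The ratios of Vamp2 to Vamp3, Vamp2 to Vamp8, Unc13a to Unc13d, Syn1 to Syn2 and Sv2a to Sv2b overlapped, with differences from -0.95 to 1.27.

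**Figure D4:**
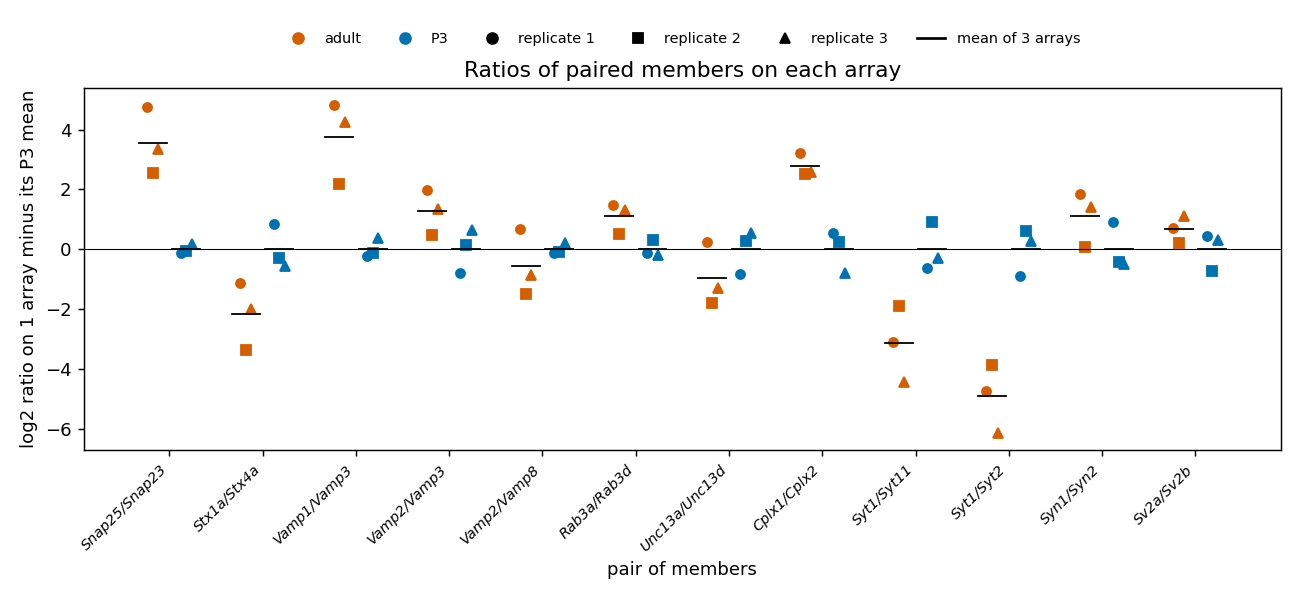
Log2 ratio of 2 members on each array minus the P3 mean of that ratio, adult in orange and left of P3 in blue, with symbols for replicates and a line for the mean of 3 arrays. The adult points of Snap25/Snap23, Vamp1/Vamp3 and Cplx1/Cplx2 lie above all P3 points, and those of Syt1/Syt2, Syt1/Syt11 and Stx1a/Stx4a below them.

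Genes that work next to the fusion machinery were read from lists of related function. The factors that take spent SNARE complexes apart were in part higher in adult: Nsf and Napb were called higher in adult, 2 of 4 measured, where 4.53% of all genes were. Nsf, the ATPase of this step, had 1262, 581 and 756 on adult arrays and 131, 229 and 232 on P3 arrays (log2 fold change 2.10, limma adjusted p = 0.0104), and without adult replicate 3 the limma adjusted p was 0.0533. Napb, beta-SNAP of brain, had a log2 fold change of 1.93 and was at the threshold, the call being lost without any one array except adult replicate 2. Napa and Napg were not called. Of 14 vesicle endocytosis genes, 4 were called higher in adult, the endophilin Sh3gl2 (log2 fold change 2.32), the dynamin Dnm3 (2.00), the synaptojanin Synj1 (1.52) and amphiphysin (Amph, 1.37), and 1 higher at P3, the adaptor Ston2 (-1.47), that is 28.6% and 7.14%, beside 4.53% and 5.49% of all genes. Without adult replicate 3 the limma adjusted p was 0.0617 for Dnm3, 0.0557 for Synj1, 0.160 for Amph and 0.0629 for Ston2. The call of Amph was lost without any one array except adult replicate 2, that of Ston2 without any one except P3 replicate 1, and that of Dnm3 also without P3 replicate 3 (limma adjusted p = 0.0535). The list median was 0.92, and 11 of the 14 had the adult order of replicates 1, 3 and 2.

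Of 18 active zone and priming genes measured, none was called higher in adult and 1 higher at P3 (5.56%, beside 5.49% of all genes), near the background. An unadjusted limma p under 0.05 was reached by 1 and 2 of the 18 in these directions, beside 1791 and 2161 of all 13743 genes measured. The gene called was Cadps2, a priming factor of dense core vesicles, with 167, 152 and 92.5 on adult arrays and 336, 476 and 312 on P3 arrays, and its limma adjusted p was 0.0957 without adult replicate 3, 0.0898 without P3 replicate 2 and 0.0543 without P3 replicate 3. Otof, otoferlin, the calcium sensor of hair cell synapses, had 65.2, 71.7 and 55.7 on adult arrays and 104, 105 and 78.7 on P3 arrays, lower on every adult array but not called (log2 fold change -0.57, limma adjusted p = 0.259). None of the 13 measured genes of the vesicle membrane and transmitter loading was called. An unadjusted limma p under 0.05 was reached by 4 with higher adult values and 0 with higher P3 values, beside the same 1791 and 2161 of all 13743 genes. Slc17a8, the vesicular glutamate transporter of inner hair cells, was not analysed here. Of 10 genes of exocytosis outside neurons, 1 was called higher in adult and 0 at P3. That is 10% and 0%, beside 4.53% and 5.49% of all genes. The called gene was Sytl2, a Rab27 effector, with 487, 535 and 624 on adult arrays and 237, 176 and 187 on P3 arrays. Its log2 fold change was 1.46, and the call was lost without adult replicate 3 (limma adjusted p = 0.0545).

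Neuron markers moved in both directions at the same time. Scn8a, Thy1 and Nefh were called higher in adult (log2 fold changes of 3.33, 2.48 and 2.42), Gap43, a protein of growing axons, was called higher at P3 (-3.38), and 14 of 18 were not called. Of 11 measured hair cell markers only Calb2, calretinin, which is also present in spiral ganglion neurons, was called (2.64, higher in adult), with a list median of -0.21. Without adult replicate 3 the limma adjusted p was 0.118 for Thy1, 0.0695 for Nefh, 0.0608 for Gap43 and 0.103 for Calb2. Calb2 was not called without adult replicate 1 either, nor was Thy1 without adult replicate 1, P3 replicate 2 or P3 replicate 3 (limma adjusted p from 0.0551 to 0.0902).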

How the data were processed

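RNA from 3 adult and 3 P3 pools of cochlear sensory epithelia was hybridised by the authors to Affymetrix Mouse Genome 430 2.0 arrays, 1 array per pool. The deposited values are linear MAS5.0 intensities, which the authors computed with GCOS (1.2 in the submitters' processing notes, another version in the methods) and scaled to a trimmed mean of 100 on each array. They were used as deposited, with 0 columns left unmatched. MAS5.0 leaves an uncertain level near background, so the number of arrays and the background limit the precision.

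Probe sets were named by the platform annotation (34945 name 1 gene, 932 several, 9160 none, 64 are controls). The background level of an array was the 90th percentile of 83 probe sets of olfactory, vomeronasal and bitter taste receptors, and 29036 probe sets above it on at least 3 arrays were kept. For each gene, the brightest kept probe set that names no other gene was used.

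Log2 signals were compared with limma 3.58.1 in R 4.3.3 (lmFit, eBayes with trend, stage as the only factor, 6 arrays), with Benjamini-Hochberg adjustment over all kept probe sets. A call needed an adjusted p under 0.05 and a 2-fold difference. SE is the moderated standard error of limma. "At least" folds set each array of the lower stage to no less than its background. The script was tested on simulated data. The study's methods name SAM, which was run as an alternative with 20 relabellings. Other alternatives were the filter, the normalization, low signals, array weights, the variance trend, the replicate block, the mean over probe sets and each array left out. The members, pairs, gene lists and alternatives were chosen with earlier results of these data known. Named were all called members, the core neuronal genes and the hair cell candidates of the rule, and members whose probe sets disagreed, with the others by range. Promoters are RefSeq sequences on GRCm38.p6, searched with Python 3.11.15 and pandas 2.3.3.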

Additional observations from a re-analysis of the deposited data

How the results depend on the processing

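The count of member genes called higher in adult was 6, and it was 6 or 7 under the other normalizations, filters and treatments of low signals. Snap25, Syt4 and Vamp5 were called in every limma setting. Member genes and probe sets called higher at P3 numbered 0 and 0 when a probe set had to exceed background on all 6 arrays or on at least 4, since Syt17 then left the test. Over the whole array 984 and 1125 probe sets were called higher in adult and at P3. Without the intensity trend these were 414 and 485, with 3 member genes and 4 probe sets higher in adult and 0 and 0 at P3. Array quality weights gave 4411 and 3182 over the array, and 18 member genes and 31 probe sets higher in adult and 6 and 15 at P3. SAM on log2 signals called 3 probe sets at P3, and SAM on signals not logged called 3 genes in adult, not Snap25, and 0 at P3. With probe sets averaged within a gene, 0 genes were called at P3, the difference of Rab3a/Rab3d was 1.83 and that of Syt1/Syt2 -3.183. The cause was not tested for these changes.

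Neither the labels nor the methods say whether the replicate numbers pair the samples. Deviations of same-numbered adult and P3 arrays correlated at 0.182, 0.213 and 0.0762. Each array correlated best with its own number, which is a hint from the data and not from the design. With the replicate block 11 genes and 19 probe sets were called higher in adult and 2 and 2 at P3, with 1331 and 1318 probe sets over the array. Cplx1, Rab3a, Stx1a, Sv2a, Syt7 and Syt12 then passed the test. Syt12 was also called with arrays scaled to the same median, mean background added, array weights, SAM on log2 signals, probe sets averaged, or P3 replicate 3 left out.

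Leaving out 1 array at a time gave 3 to 8 genes and 3 to 14 probe sets higher in adult, and 0 to 2 of either at P3. The lowest adult counts were without adult replicate 3 and the highest without adult replicate 2. Near 0, the log2 fold change of Rab3d was 0.1419 with array weights and ran from -0.2775 to 0.2691 without 1 array. That of Syn2 ran from -0.02055 to 0.8943 and that of Unc13a from -0.1485 to 0.6499, both lowest without adult replicate 1.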

Other observations

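Of the members that did not pass the background filter, Rab3b, a GTPase of secretory vesicles, was above background on 2 P3 arrays and no adult array, with 11.4, 4.11 and 1.43 on adult arrays and 14.4, 56.1 and 40.0 on P3 arrays. Syt16, which does not bind calcium, was also above background on 2 P3 arrays, with 0.252, 0.564 and 3.87 on adult arrays and 12.6, 21.5 and 15.2 on P3 arrays. Neither was tested. One further probe set names Vamp1 together with an uncharacterised gene, E130112N10Rik. It was left out of the members and did not pass the filter.

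Measured probe sets of the same gene differed in sign for 16 of the 40 member genes with several of them: Rab3c, Snap23, Stx3, Stx6, Stx12, Stx18, Stxbp2, Stxbp3, Stxbp4, Stxbp5l, Stxbp6, Syn2, Syn3, Vamp3, Vamp4 and Vamp7. None of these probe sets was called. In the other 24 genes all probe sets had the same sign, among them all 5 of Syt11 and all 3 each of Cplx1, Cplx2, Syt1 and Syt7.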
